A study of Mus musculus with 2 samples.

Results

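The genes described here are the cytokines, the chemokines and their receptors on a mouse expression array. Members were the genes whose platform symbol began with Il, Tnfrsf, Tnfsf, Ccl, Cxcl, Ccr or Cxcr followed by a digit, taken from probe sets with a single symbol, and 2 genes that match that pattern were left out of the set beforehand. The pattern uses names only and no measured value. It found 144 members among 18194 genes with a probe set, covered by 229 probe sets. Of the members, 87 had 1 probe set and 57 had several, up to 5, and the brightest one, by mean intensity over both arrays, stood for the gene.

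RNA came from mouse cells labelled lymphoma under 2 culture conditions, and 1 array was hybridised per condition. The first condition was co-culture with endothelial cells, which form the inner lining of blood vessels. The second was culture in medium that contained serum. The sources used here do not give the genotype or strain of the lymphoma cells, whether they are an established line, where the endothelial cells came from, how long the cells were cultured, the medium of the co-culture, or whether the lymphoma cells were purified for RNA extraction. Without replicates nothing below carries a test or a p-value, and less RNA per cell and fewer cells of a type cannot be told apart.

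Cytokines are secreted or membrane-bound proteins that carry signals between cells. Chemokines are small cytokines that draw cells along a concentration gradient through G protein-coupled receptors. Most interleukins bind receptor chains that either pass the signal to Janus kinases and STAT transcription factors or, in the IL-1, IL-18 and IL-17 families, to adaptors that lead to NF-kB. Ligands of the tumour necrosis factor superfamily bind trimeric receptors, some of which carry a death domain and some of which recruit TRAF adaptors. In lymphoid cells these systems govern homing, survival and differentiation, and endothelial cells both make and receive many of the same signals.

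The endothelial co-culture array had a median intensity of 50.7 and the serum culture array one of 36.9, and both held 45101 probe sets with a trimmed mean of 500.003. A gene counted as measured when its probe set lay above 44.3, the median of all values of both arrays, on at least 1 array. Values below that floor were set to it before the log2 difference, co-culture minus serum, was taken, so that a fold with 1 array at the floor is written as at least that fold. The label was not borne out by defining markers: 2 of 12 pan-leukocyte markers and 3 of 10 B lineage markers with a probe set were measured, and Ptprc, the CD45 antigen of white blood cells, had 3.14 on the co-culture array and 21.5 on the serum array. Of 18 endothelial markers 4 were measured, and the defining Pecam1 (18.4 in co-culture, 21.3 in serum) and Cdh5 (44.1 and 19.6) were not. Measured markers were 1 of 8 for T lineage, 3 of 10 for macrophages, 5 of 10 for fibroblasts and 3 of 9 for epithelium. Summed marker intensity in co-culture and in serum was 295 and 377 for leukocytes, 396 and 291 for B lineage, 147 and 114 for T lineage, 1029 and 867 for endothelium, 335 and 185 for macrophages, 464 and 385 for fibroblasts and 539 and 487 for epithelium. The sums include values under the floor, and Egfl7 alone gave 532 and 473 of the endothelial sums. Flt1, the 1 endothelial marker past 2-fold, was lower in co-culture (26.4 and 93.3). Measured leukocyte markers were Cd53 (64.3 in co-culture and 139 in serum) and Coro1a (125 and 75.5). Measured B lineage markers were Blk (126 and 27.0), Ebf1 (85.3 and 161) and Cr2 (51.8 and 10.9). No marker was listed at 0. The 3′ probe set of beta-actin was 2.05 times as bright as the 5′ one in co-culture and 3.56 times in serum, a ratio that grows with RNA breakdown. For Gapdh the ratio was 1.88 in co-culture and 2.54 in serum, and for the transferrin receptor 5.03 and 13.2. The part of these differences in the results was not tested.

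Most cytokine and chemokine genes gave no signal above the floor on either array. Of 144 members 47 (32.6%) were measured, against 63.4% of all genes. On the co-culture array 39 members lay above the floor (60.3% of all genes did), on the serum array 31 (57.6% of all genes), and 23 did so on both. Among the 97 members that were not measured, 62 had at most the intensity of the brightest bacterial control outside the spike mix (21.7) on both arrays. The measured members were also dim. The median of their mean intensity was 65.6, against 618 over all measured genes, and 27 of the 47 stayed under 100 on both arrays. A mean of 200 or more was reached by 9 members (6.25% of 144), against 44.5% of all genes.

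A larger share of receptors than of ligands was above background. Roles were assigned from the gene symbols alone, so an inhibitor with an interleukin symbol, such as Il1f5, counts as an interleukin. Of 68 receptor chains 28 (41.2%) were measured, and of 73 ligands 18 (24.7%). By role, the measured share was 50% for the TNF receptor superfamily (9 of 18), 44.4% for interleukin receptors (16 of 36), 26.5% for interleukins (9 of 34), 25.8% for chemokine ligands (8 of 31), 21.4% for chemokine receptors (3 of 14) and 12.5% for TNF superfamily ligands (1 of 8). The ligand counts include 2 transcripts named for the opposite strand, Il1bos and Tnfsf13os, both unmeasured by the probe set used. Another probe set of Tnfsf13os had 3.79 in co-culture and 46.3 in serum, just above the floor. Without these 2 transcripts the shares are 27.3% of 33 interleukins, 14.3% of 7 TNF superfamily ligands and 25.4% of 71 ligands. Of the 9 members with a mean of 200 or more, 8 were receptor chains and 1 was a chemokine. These shares describe which probe sets gave signal on these arrays and depend on each probe set's own brightness.

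**Figure D1:**
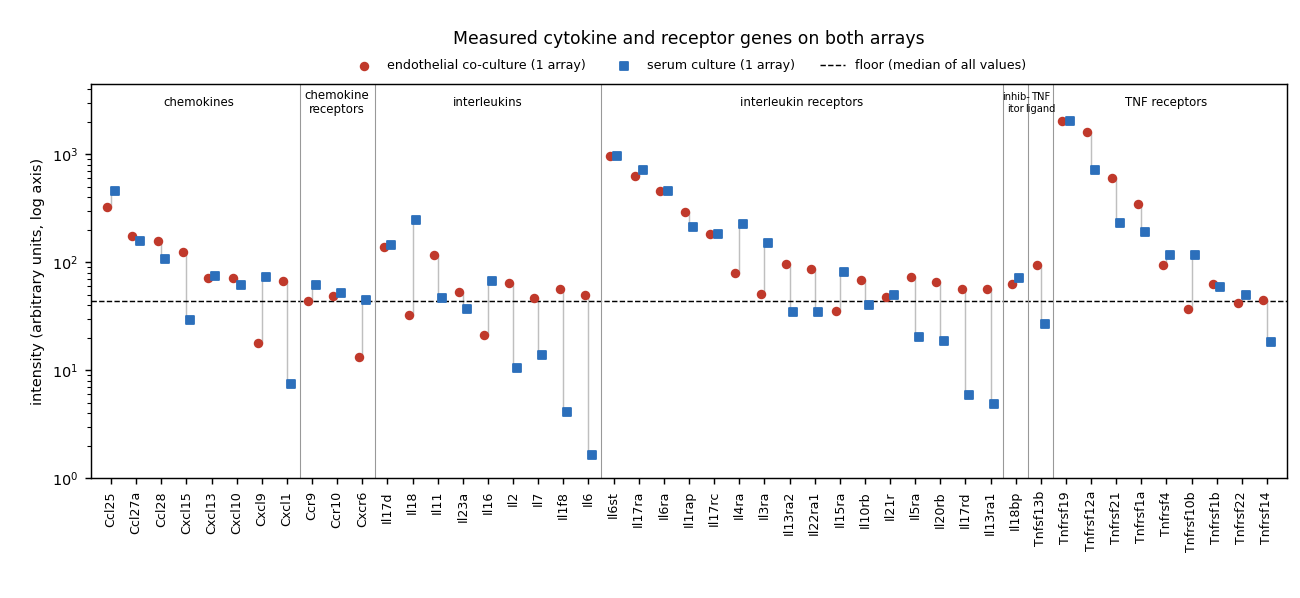
Intensity (arbitrary units, log axis) of the 47 measured members on the co-culture array (circles) and the serum array (squares), grouped by role and ordered by mean intensity, with the floor of 44.3 dashed. The 2 arrays lie nearly on top of each other for Il6st, Il6ra, Il17rc and Tnfrsf19, while Il18, Il4ra and Il3ra are lower in co-culture and Tnfrsf12a and Tnfrsf21 higher.

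In co-culture 6 of the 47 measured members were higher by 2-fold or more (12.8%), against 4.6% of all measured genes, and 4 were lower by 2-fold or more (8.51%), against 10.1% of all measured genes. Together the 10 compare with 14.7% of all measured genes past 2-fold in either direction. The other 37 were not past 2-fold. Of these, 18 were above the floor on both arrays and lay within 2-fold, and 19 had 1 array at the floor, so that their differences are lower bounds and may be larger (13 with more signal in co-culture, 6 with less). The 6 higher members were Cxcl15, Tnfrsf21, Il11, Tnfrsf12a, Il13ra2 and Tnfsf13b, and the 4 lower members were Il18, Il3ra, Il4ra and Tnfrsf10b. The median log2 difference of the measured members was 0.08, and that of all measured genes was -0.06. Because most members were dim, the same counts were read against genes of like level. Among measured genes with a mean under 200, 7.85% were higher and 12.1% lower, and of the 38 members in that range 4 were higher and 4 lower (10.5% each). The share past 2-fold in either direction was thus 21.1% for dim members and 19.9% for dim genes. Above that level 2 of 9 members were higher and 0 lower, against 3.21% and 9.21% of genes. Scaling the arrays to the hybridisation spikes moved the median of all measured genes to -0.25 and the share of higher among all called genes to 18.1%, against 31.4% as reported, with 5 members higher and 4 lower. Of all measured genes 3.1% were higher and 14.1% lower after that scaling. With 16 added to every intensity instead of raising low values to the floor, 16 of 47 measured members were higher and 7 lower. Under that setting 7.63% of all measured genes were higher and 10.6% lower, and measured still meant above 44.3 on at least 1 array.

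Members that crossed the floor did so more often in the co-culture direction, as did dim genes at large. Of the measured members 16 (34.0%) were above the floor on the co-culture array and not on the serum array, against 9.23% of all measured genes and 30.7% of those with a mean under 200. In the other direction it was 8 members (17.0%), against 5% and 16.6%. For 5 of the 10 members past 2-fold, 1 array was at the floor.

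**Figure D2:**
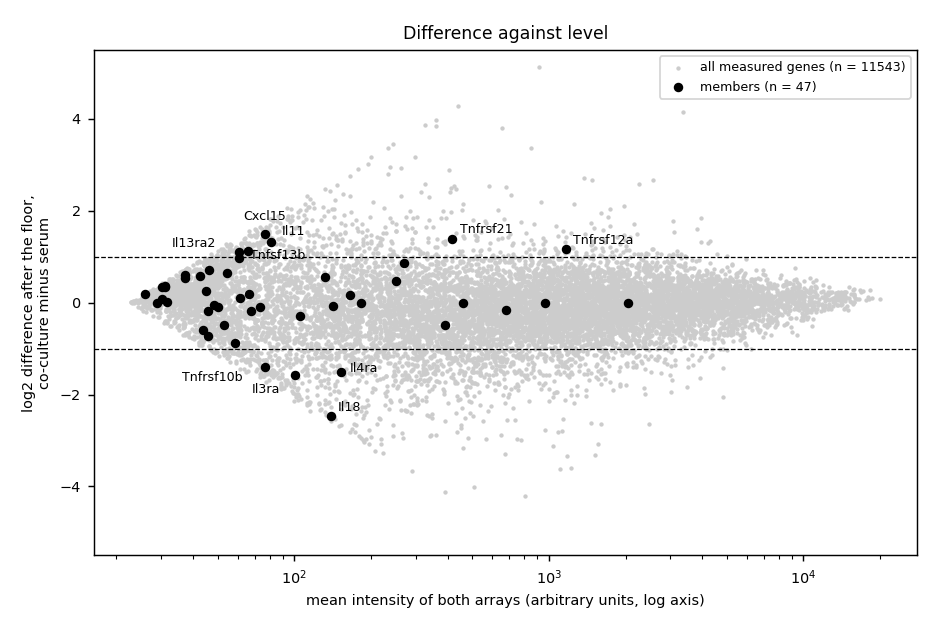
Log2 difference after the floor (co-culture minus serum) against mean intensity on a log axis for the 11543 measured genes (grey) and the 47 measured members (black), with the 10 members past 2-fold named and the 2-fold limits dashed. The left edge narrows because a value at the floor bounds the difference; 8 of the 10 named members lie below a mean of 200, and Tnfrsf21 and Tnfrsf12a above it.

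The upstream sequences of members past 2-fold are shown to give the genomic setting of the genes the comparison turned on. RefSeq start sites of GRCm38.p6 matched 109 of the 144 members and 9 of these 10, all but Tnfrsf10b. The 250 bases before each start were searched on both strands for 5 motifs chosen with the members' values known. The first pair of stretches covers the 150 bases directly before the gene start of Il18, the member with the largest difference (chr9:50554550-50554699, plus strand), and of Tnfrsf12a, the brightest member past 2-fold (chr17:23677450-23677599, minus strand). Capitals mark a CCAAT box (CCAAT) in Il18 and GC boxes (GGGCGG, on either strand) in Tnfrsf12a.
Il18: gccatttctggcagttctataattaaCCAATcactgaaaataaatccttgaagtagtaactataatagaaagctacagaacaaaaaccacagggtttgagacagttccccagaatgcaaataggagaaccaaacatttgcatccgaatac
Tnfrsf12a: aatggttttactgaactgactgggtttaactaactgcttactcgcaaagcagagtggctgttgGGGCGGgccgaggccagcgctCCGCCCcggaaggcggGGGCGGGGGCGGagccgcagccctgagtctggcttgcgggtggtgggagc

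The AP-1 letters TGANTCA, the site of Fos and Jun dimers, stood in the windows of 3 of the 6 higher members (Il11, Il13ra2 and Tnfsf13b) and of 0 of the 3 lower members with a window, against 7.82% of 27025 genes with a window. For Il11 and Tnfsf13b the match stood before the second annotated start and not before the first. Members and motifs were both chosen with the values known, and a link between these letters and the differences was not tested. A stretch of 67 bases with the match in capitals is shown for Il11, before the second of its annotated starts (chr7:4778203-4778269, minus strand), and for Il13ra2 (chrX:147429349-147429415, minus strand).
Il11: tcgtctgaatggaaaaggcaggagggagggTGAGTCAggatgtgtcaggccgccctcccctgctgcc
Il13ra2: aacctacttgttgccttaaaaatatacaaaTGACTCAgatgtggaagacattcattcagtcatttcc
GC boxes were found for 3 of 6 higher members (Il11, Tnfrsf12a and Tnfrsf21) and 2 of 3 lower ones (Il3ra and Il4ra), against 35.4% of genes, and CCAAT for Il11, Il13ra2 and Il18, against 37.5%. The STAT letters TTCNNNGAA were found for 0 of the 9 (8.13% of genes) and the TATA box letters TATAAA for Cxcl15, Il13ra2 and Il18 (14.3% of genes). Matches of different motifs may overlap. They are letter matches and not binding sites.

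Chemokine ligands were mostly below background. Of 31 members 8 were measured, 1 was higher and 0 lower, and the median log2 difference of the 8 was 0.18. The brightest was Ccl25, which attracts developing thymocytes and gut-homing lymphocytes, with 324 in co-culture and 454 in serum. Its log2 difference was -0.49, and another measured probe set gave 0.43. Its receptor Ccr9 had 44.0 in co-culture, just under the floor, and 61.7 in serum, while a second measured probe set ran the other way, with 55.02 in co-culture and 30.6 in serum. Ccl27a, a skin-homing chemokine, had 176 in co-culture and 157 in serum, by a probe set whose identifier marks sequence shared with other transcripts. Ccl28, a mucosal chemokine, had 157 in co-culture and 106 in serum, and a second measured probe set had 95.6 and 2.36. Their shared receptor Ccr10 was barely above the floor on both arrays (48.4 and 51.8).

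Cxcl15, a chemokine known from mouse lung that draws neutrophils, was the chemokine past 2-fold. It had 124 in co-culture and 29.1 in serum, at least 2.81-fold higher, while its other probe set stayed under the floor (29.5 and 14.3). Cxcl1, another neutrophil chemokine, had 67.2 in co-culture and 7.41 in serum, a log2 difference of 0.60 after the floor, and a second measured probe set gave 0.41. The interferon-induced ligands of Cxcr3 were near the floor: Cxcl10 had 71.0 in co-culture and 62.0 in serum, and Cxcl9 had 18.01 and 73.2. Cxcl13, which guides B cells into follicles, had 70.9 and 75.4. The other 23 chemokine ligands, Cxcl12, Ccl2 and Ccl5 among them, were unmeasured and reached at most 34.8.

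The chemokine receptors that match the naming pattern and were analysed here were dim. Of 14 members Ccr9, Ccr10 and Cxcr6 were measured, 0 were past 2-fold, and no value exceeded 61.7. Cxcr6, a receptor of memory T and innate lymphoid cells, had 13.4 in co-culture and 44.5 in serum, and its serum value was just above the floor. The 11 unmeasured receptors, among them the lymphoid homing receptors Ccr7 and Cxcr5, reached at most 33.4. Ackr4, an atypical chemokine receptor outside the pattern that takes up Ccl25 among other ligands, was brighter than these by far, with 3123 in co-culture and 1700 in serum, a log2 difference of 0.88, and its other measured probe set gave 1.05.

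Among the 9 measured interleukins 1 was higher, 1 was lower, 1 lay within 2-fold with both arrays above the floor, and 6 had 1 array at the floor and a lower bound short of 2-fold. Il18, an IL-1 family cytokine that is stored as a precursor and induces interferon-gamma, showed the largest difference of any member. It had 32.4 in co-culture and 245 in serum, at least 5.53-fold lower, by its single probe set. Il18bp, the soluble inhibitor that neutralises IL-18, did not share that difference: it had 63.0 in co-culture and 71.7 in serum. The receptor chains Il18r1 and Il18rap were unmeasured. Il18bp was the measured one of 3 members set apart by symbol as inhibitors and others. The IL-1 receptor antagonist Il1rn (17.01 and 18.1) and the enzyme gene Il4i1 were not measured.

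Il11, a cytokine of the IL-6 family that signals through gp130, was 2.49-fold higher, with 116 in co-culture and 46.5 in serum by its single probe set. The serum value was close to the floor. Il6 itself had 50.2 in co-culture and 1.64 in serum, a log2 difference of 0.18 after the floor. Il17d, an IL-17 family member, was at 138 in co-culture and 145 in serum, while a second measured probe set had 144 and 86.8. Il16, a T cell chemoattractant, had 21.1 and 66.7. Il2, Il7, Il23a and Il1f8 were above the floor on the co-culture array, at 46.7 to 64.1, and below it on the serum array. Of the 25 unmeasured interleukins, Il17b came closest to the floor, with 3.29 in co-culture and 41.0 in serum.

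Among the 16 measured interleukin receptor chains 1 was higher, 2 were lower, 6 lay within 2-fold with both arrays above the floor, and 7 had 1 array at the floor and a lower bound short of 2-fold. The signal-transducing chain gp130 of the IL-6 family, encoded by Il6st, was the brightest of them, and its probe sets disagreed. The probe set with the highest mean had 962 in co-culture and 961 in serum, a log2 difference of 0.0015. Another, of similar brightness, had 1307 in co-culture and 438 in serum, a log2 difference of 1.58. The remaining 2 were dim and gave 0.47 and 0.74, so 3 of 4 probe sets were higher in co-culture and the one used by the rule was level. Il6ra, the ligand-binding chain for IL-6, had 459 on both arrays (log2 difference 0.0022), with its other probe set below the floor.

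The receptors of the IL-17 family differed in level among themselves. Il17ra, the chain shared by that family, had 636 in co-culture and 715 in serum, and a second probe set gave a log2 difference of 0.45. Il17rc, its partner for IL-17A and IL-17F, had 183 and 184. Il17rd, which also restrains FGF signalling, had 56.3 in co-culture and 5.91 in serum, under the floor, and Il17rb and Il17re were unmeasured. Il1rap, the accessory chain for IL-1 and IL-33 receptors, had 292 in co-culture and 211 in serum, a log2 difference of 0.47, and its 2 other measured probe sets gave 0.15 and 1.14. None of these 4 was past 2-fold by the probe set used.

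Il4ra, the chain shared by the receptors for IL-4 and IL-13, was 2.83-fold lower, with 79.3 in co-culture and 224 in serum. Its 2 other probe sets were under the floor throughout. Il3ra, the ligand-binding chain of the IL-3 receptor, was 2.97-fold lower by its single probe set, with 50.5 in co-culture and 150 in serum. Il13ra2, a high-affinity IL-13 receptor that acts largely as a decoy, differed the other way: it had 96.5 in co-culture and 34.6 in serum, at least 2.18-fold higher. Il13ra1, the signalling partner of Il4ra for IL-13, had 57.1 in co-culture and 4.86 in serum, a log2 difference of 0.37 after the floor.

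The members nearest to the 2-fold limit were also interleukin receptors or TNF family genes. Just past it lay Il13ra2 (1.12) and Tnfsf13b (1.10), and just short of it Il22ra1 (0.96), the IL-22 receptor chain, and Il15ra (-0.88), which presents IL-15 to neighbouring cells. All 4 had 1 array at the floor, and with the floor at percentile 25 of all values Il22ra1 had 1.30 and Il15ra -1.20. Il22ra1 had 86.2 in co-culture and 34.9 in serum, and Il15ra had 35.5 and 81.5, with a second probe set of Il15ra at 0.26. The receptor chains Il10rb, Il20rb and Il5ra had 66.3 to 72.6 in co-culture and 18.7 to 40.0 in serum, under the floor, and Il21r had 47.6 and 49.4. Il12rb1 was the unmeasured interleukin receptor closest to the floor (41.6 in co-culture and 11.1 in serum).

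The TNF receptor superfamily held the brightest members and the higher members with the most signal. Of 9 measured, 2 were higher, 1 was lower, 4 lay within 2-fold with both arrays above the floor, and 2 had 1 array at the floor and a bound short of 2-fold. Tnfrsf19 (TROY), an orphan receptor of embryonic epithelium and stem cells that lacks a death domain, was the brightest member of all and was level, with 2049 in co-culture and 2054 in serum. Its other measured probe sets were much dimmer and gave -0.10 and -0.29. Tnfrsf12a (Fn14), the receptor for the cytokine TWEAK, was 2.24-fold higher, with 1614 in co-culture and 719 in serum. Its second probe set had 1178 and 596, a log2 difference of 0.98, just short of the limit.

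Tnfrsf21 (death receptor 6) was 2.62-fold higher, with 605 in co-culture and 231 in serum, by a probe set marked for shared sequence. Its other probe set, not so marked, had 127 in co-culture and 36.8 in serum, a log2 difference of 1.52, which makes Tnfrsf21 the 1 member past 2-fold for which a second measured probe set was past it too. Tnfrsf1a, the main receptor of TNF, had 348 in co-culture and 190 in serum by its single probe set, a log2 difference of 0.87. Tnfrsf10b, the mouse death receptor for TRAIL, was at least 2.63-fold lower, with 36.7 in co-culture and 117 in serum, and its second probe set lay under the floor (3.15 and 36.4). The 3 death domain receptors Tnfrsf21, Tnfrsf1a and Tnfrsf10b thus had log2 differences of 1.39, 0.87 and -1.40. Tnfrsf4 (OX40), a T cell costimulator, had 94.4 and 116, and Tnfrsf1b, the second TNF receptor, had 63.6 and 59.0. Tnfrsf14, a receptor for LIGHT, had 44.8 and 18.4, and Tnfrsf22, a mouse decoy receptor for TRAIL, 41.9 and 50.1. The 9 unmeasured receptors of this family reached at most 27.2.

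Of the 8 members with a TNF superfamily ligand symbol 1 was measured. Tnfsf13b, the B cell survival factor BAFF, had 94.8 in co-culture and 26.7 in serum, at least 2.14-fold higher, while its 2 other probe sets stayed below the floor. Tnfsf9, the ligand of the costimulator 4-1BB, came closest among the others with 41.7 and 33.7. Tnfsf10, which encodes TRAIL, had 17.7 and 19.6. Tnfsf12, the gene of TWEAK, is not among the genes analysed here.

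**Figure D3:**
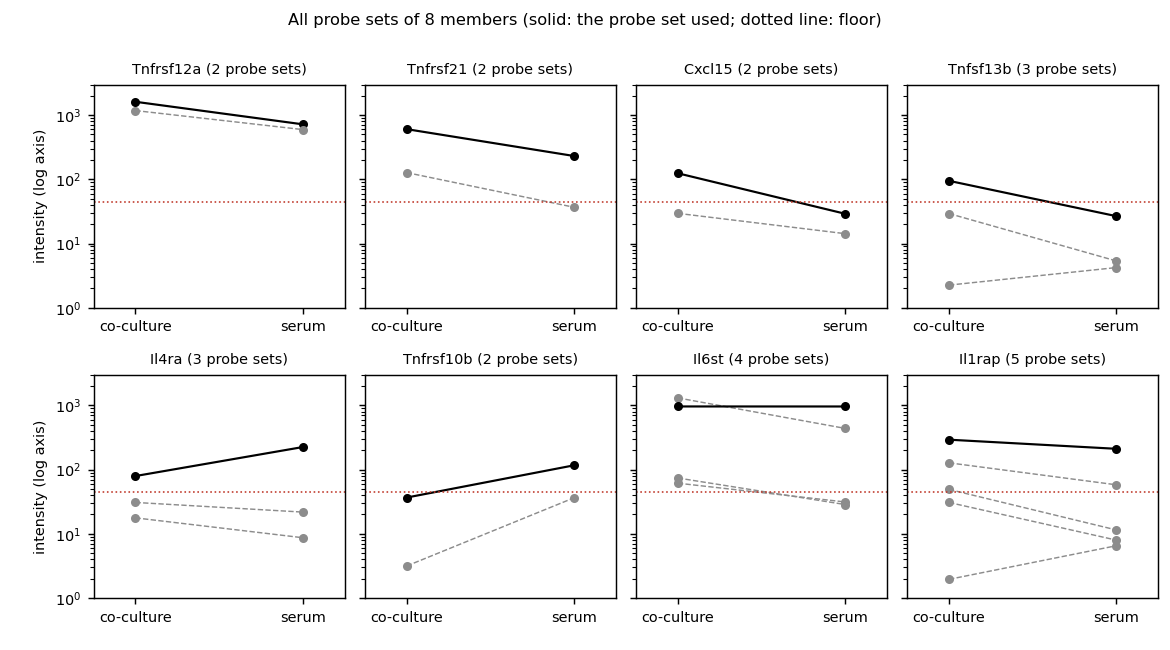
Intensity (log axis) of every probe set of 8 members in co-culture (left) and serum (right); the solid black line is the probe set used and the dotted line is the floor of 44.3. Both probe sets of Tnfrsf12a and of Tnfrsf21 are higher in co-culture, the remaining ones of Cxcl15, Tnfsf13b, Il4ra and Tnfrsf10b stay below the floor, and those of Il6st and Il1rap have different slopes.

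Of the 10 members past 2-fold, 4 had a single probe set, 4 had others that all lay below the floor, and 2 had another measured one. Over all genes with several measured probe sets the pooled within-gene SD of log2 differences was 0.60 (5480 genes), and over 12 members it was 0.50. This SD covers disagreement among probe sets of the same gene after the floor. It does not cover an error common to a whole array or the spread between cultures. The folds of the 10 members ranged from at least 2.14 (Tnfsf13b) to at least 5.53 (Il18).

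Most signal transducers downstream of these receptors were above background: 23 of 27 genes of the JAK-STAT list and 32 of 36 of the list for IL-1, Toll-like and TNF receptor signalling were measured. In the JAK-STAT list 1 was higher and 3 lower, with a median log2 difference of -0.32. Stat3, the STAT activated by IL-6 family cytokines, was 5.34-fold higher, with 691 in co-culture and 129 in serum, and other measured probe sets gave 0.67 to 2.58. Stat6, which IL-4 and IL-13 activate through Il4ra, was 3.51-fold lower (253 in co-culture and 888 in serum), with -0.35 by another probe set. Stat5a and Stat5b, used by IL-3 and other cytokines, were 2.71-fold and 2.34-fold lower by a single measured probe set each, and these are neighbouring genes of closely similar sequence.

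In the list for IL-1, Toll-like and TNF receptor signalling 0 were higher and 2 lower, with a median of -0.21. Nfkbie, an inhibitor that holds NF-kB in the cytoplasm, was at least 7.09-fold lower, with 31.7 in co-culture and 314 in serum, and its other measured probe set gave -1.93. Tnip1, which restrains NF-kB together with A20, was 2.38-fold lower (251 and 599). Among 48 further cytokine and receptor genes outside the naming pattern 21 were measured, 0 were higher and 1 was lower, with a median of -0.04. That gene was Lifr, the chain that pairs with gp130 for LIF, which was 2.41-fold lower (654 in co-culture and 1573 in serum; -0.40 by another probe set). These lists can be read against the 4.6% of measured genes that were higher and the 10.1% that were lower. Their counts rest on the probe set used, and some genes not past 2-fold had another that was. Ptpn11 had -0.01 by the probe set used and 1.48 and 2.57 by its others, and Csf1 had -0.26 and 1.24. In the other direction, Nfkb2 had -0.02 and another gave -2.02, and Pias4 had -0.36 and another -1.05.

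**Figure D4:**
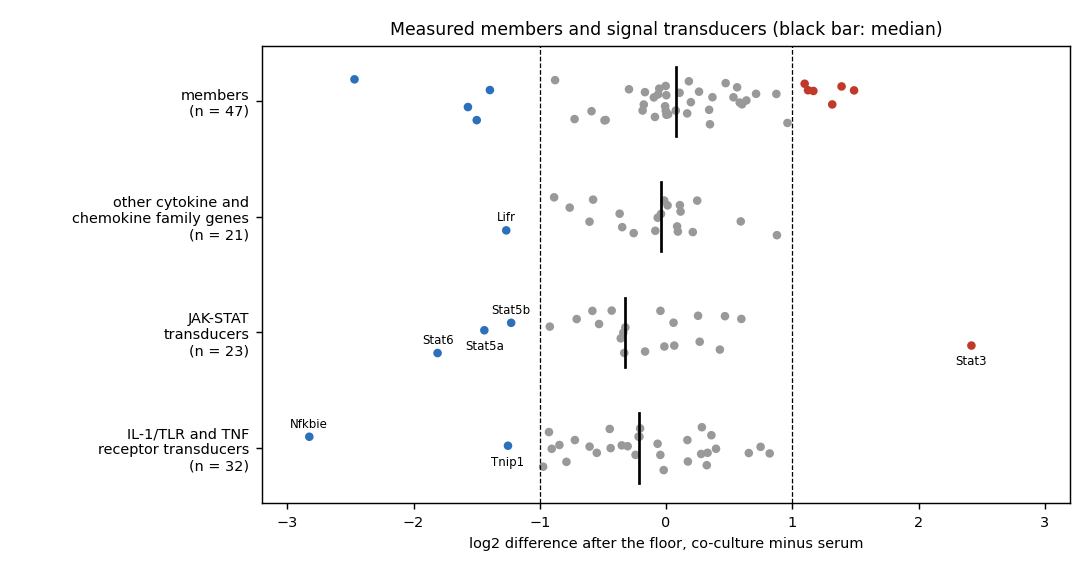
Log2 difference after the floor (co-culture minus serum) of the measured members and of 3 lists of related genes, 1 point per gene, with black bars at the medians (0.08, -0.04, -0.32 and -0.21 from top to bottom) and dashed 2-fold limits. Stat3 lies far to the right and Nfkbie far to the left, and most other points lie between the limits, some of them as lower bounds with 1 array at the floor.

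The 10 calls were recomputed under 11 other settings of the floor, the scaling and the choice of probe set. Direction did not change in any setting that gave a value, but other floors and the pseudocount cannot reverse a sign by construction. For members with a single probe set, the choices of probe set returned the same value. The highest mean log2 picked the reported probe set for all 10. Tnfrsf12a had 1.17 under every other floor, because both of its values lay above them. The counts of settings below therefore include some that returned the reported value unchanged. Tnfrsf12a and Tnfrsf21 stayed past 2-fold in 10 of 11 settings, Il18, Il3ra, Il11 and Il13ra2 in 9, Cxcl15, Il4ra and Tnfrsf10b in 8 and Tnfsf13b in 7. Most losses came from floors of 200 and of percentile 75, at which most dim genes had no value above the floor. At 200 Il18 and Il4ra had values short of 2-fold (-0.29 and -0.17), as had Tnfrsf21 at percentile 75 (0.64). Other losses were Tnfrsf12a with spike scaling (0.97) and Tnfsf13b, just short with quantile normalization. The mean over probe sets left Cxcl15 and Tnfrsf10b short of 2-fold and Il4ra and Tnfsf13b unmeasured.

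**Figure D5:**
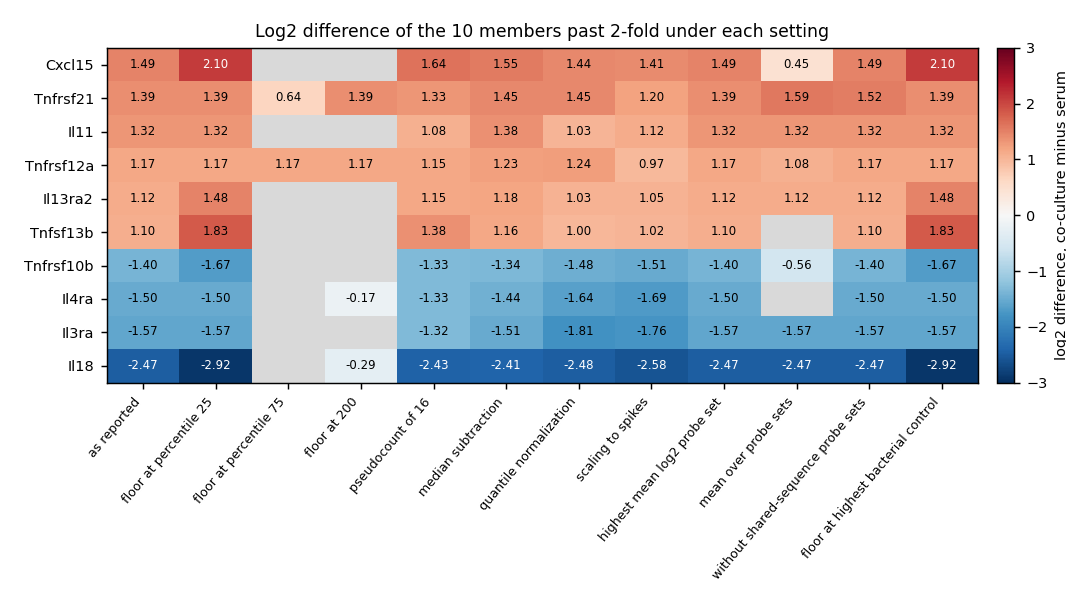
Log2 difference (co-culture minus serum) of the 10 members past 2-fold as reported and under 11 other settings; red is higher in co-culture, blue is lower, and grey means that the gene was not measured in that setting. The signs are the same along each row, as they must be for the floors and the pseudocount. The highest floors leave 3 or fewer coloured cells beyond Tnfrsf12a.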

How the data were processed

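RNA of 2 samples was amplified to biotinylated cRNA and measured on 1-colour arrays, 1 per condition, per the labels' protocols. The authors deposited 1 linear intensity per probe set; their software, background correction and normalization are nowhere stated in the sources used here. Equal trimmed means (2% cut at each end) point to global scaling, which no label states. Gene names came from the platform annotation (34958 probe sets with 1 symbol; 932 with several name no gene, 10 of them holding a symbol of the pattern), updated by gene number to RefSeq GRCm38.p6. Python 3.11.15, numpy 2.4.6 and pandas 2.3.3 set the floor at the pooled median (44.3), took log2 differences and called a size of 1 or more. The steps were tested on simulated data with large changes in bright genes, which does not cover calls near 2-fold or near the floor. The number of arrays limits the precision, and size stands in for a test. Members, lists and settings were chosen with earlier results of these data known. Named members were those past 2-fold, the 3 brightest of each role, those nearest the 2-fold limit and the unmeasured ones nearest the floor, with up to 6 genes past 2-fold from each related list; other named genes were chosen after their values were seen. Alternatives were other floors, a pseudocount of 16, 3 scalings, 3 choices of probe set and a 1.5-fold call.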

Additional observations from a re-analysis of the deposited data

How the results depend on the processing

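As reported, 47 members were measured, 6 higher and 4 lower. The counts moved with the floor: at percentile 25 of all values 107 were measured, 29 higher and 10 lower; at the highest bacterial control (21.7, a setting chosen after the data were seen) 82, 17 and 8; at 200, 11, 2 and 0; and at percentile 75, 7, 1 and 0. The number measured follows from the construction, since a lower floor admits more dim genes. A lower floor also lengthens differences that the higher floor bounded. At percentile 25 Il22ra1 went from 0.96 to 1.30 and Il15ra from -0.88 to -1.20. Why more members were higher than lower was not tested. Among all measured genes 12.7% were higher and 10% lower at percentile 25, and 8.05% and 9.71% at the bacterial control. The shares were 2.61% and 7.83% at 200 and 1.98% and 5.53% at percentile 75. A pseudocount of 16 gave 16 higher and 7 lower, against 7.63% and 10.6% of all measured genes. A 1.5-fold call gave 11 and 7, against 12.8% and 21.6%. The mean over probe sets gave 5 and 2 among 34 measured, against 7.55% and 6.94%. Quantile normalization gave 5 higher and 5 lower, against 4.47% and 10.5% of all measured genes. It kept each count within 1.5 times, as did median subtraction, spike scaling, the highest mean log2 probe set and leaving out shared-sequence probe sets. Of all called genes 31.4% were higher as reported, 55.9% at the percentile 25 floor and 52.1% with the mean over probe sets; the cause was not tested. The median difference of members ranged from -0.02 (spikes) to 0.53 (percentile 25 floor). No paired analysis was possible because each condition has 1 array and the labels give no replicate numbers.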

Other observations

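The choice of probe set moved 2 of the bright receptor chains of the IL-6 family. Il6st was level by its brightest probe set, but averaging log2 values over its 4 probe sets gave a log2 difference of 0.98. Il6ra was likewise level and had 1.23 with the mean over probe sets, where its second probe set (23.5 in co-culture and 2.06 in serum, both under the floor) entered the average. Cxcl15 had 0.45 and Tnfrsf10b -0.56 under the same averaging.

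With the floor lowered to 12.8, percentile 25 of all values, 29 members were past 2-fold on the higher side in co-culture and 10 on the lower side, at intensities where bacterial controls also lie. Among all measured genes 12.7% were higher and 10% lower at that floor, against 4.6% and 10.1% at the floor of 44.3.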
